A study of Mus musculus with 22 samples.

Results

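Transcripts of myeloid C-type lectin receptors were followed in mouse pancreatic tumours, for 8 genes chosen by name from the 17966 in the deposited table. They were Clec7a, Clec4e, Clec4d, Clec4n, Clec12a, Clec5a, Clec4a2 and Clec10a, and all were present and passed the filter on low values. The 8 were chosen with earlier results of these data known, so setting their counts beside the shares of all genes is description only. The 22 tumours had formed in the pancreas from implanted PDA.7940B cells, a polyclonal line derived from KPC mice, a strain that develops pancreatic cancer. The labels give the genotype as WT. Of these, 6 tumours had received beta-glucan (1.2 mg, intravenously, 1 dose) and 6 anti-CD40 (clone FGK45, 0.1 mg, intraperitoneally, 1 dose). Another 5 had received both agents, with no dose stated for this group, and 5 were untreated. Treated tumours were taken 10 days after treatment, and no day is stated for the untreated ones. Whether the tumours of a group came from separate mice is not stated, and the p-values below cover the spread among these samples alone.

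C-type lectin receptors are surface proteins with which macrophages, monocytes, dendritic cells and neutrophils bind sugars and lipids of microbes and of dying cells. Dectin-1 is the main receptor for the beta-glucan of fungal cell walls and signals through the kinase Syk from a motif in its own tail. Mincle, its partner MCL and Dectin-2 lack such a motif and signal through the adaptor Fcer1g, and MDL-1 through the adaptor Tyrobp. Clec12a and the DCIR protein of Clec4a2 carry inhibitory motifs that recruit phosphatases. CD40 is a receptor of the TNF receptor family on antigen-presenting cells, and FGK45 is an antibody that activates it.

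In the GENCODE M21 annotation of GRCm38 (mm10), 7 of the 8 genes were on chromosome 6 and Clec10a was on chromosome 11. Clec4a2, Clec4n, Clec4d and Clec4e were in the Dectin-2 cluster (chr6:122921848-123289870). Clec4d and Clec4e were transcribed towards each other with a gap of 6.523 kb between their ends. Clec12a and Clec7a were in the Dectin-1 cluster (chr6:129342691-129507165). Clec5a was on its own at chr6:40574894-40585821, and Clec10a at chr11:70156197-70170834. RefSeq promoters (GRCm38.p6), running from 250 bases before to 50 bases after the transcript start, matched 6 of the 8 genes. Those of 4 genes are printed, because these are the neighbouring pair of Mincle and MCL and the members that lie in the Dectin-1 cluster, and all 4 rose under each treatment. Capitals mark matches on either strand to GAGGAA, the core of sites for PU.1, a myeloid transcription factor, to TTGCNNAA, a C/EBP site, or to TGANTCA, an AP-1 site.
Clec4e: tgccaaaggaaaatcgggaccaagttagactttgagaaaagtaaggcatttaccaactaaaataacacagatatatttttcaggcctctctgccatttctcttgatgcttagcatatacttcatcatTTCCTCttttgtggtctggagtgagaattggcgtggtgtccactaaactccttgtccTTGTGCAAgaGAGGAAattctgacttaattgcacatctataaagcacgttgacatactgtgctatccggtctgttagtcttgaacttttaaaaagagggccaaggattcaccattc
Clec4d: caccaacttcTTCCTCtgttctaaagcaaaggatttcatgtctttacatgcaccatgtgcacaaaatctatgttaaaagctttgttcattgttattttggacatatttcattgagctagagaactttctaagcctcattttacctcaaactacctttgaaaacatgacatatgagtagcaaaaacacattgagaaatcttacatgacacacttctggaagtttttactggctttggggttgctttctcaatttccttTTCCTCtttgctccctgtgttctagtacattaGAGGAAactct
Clec7a: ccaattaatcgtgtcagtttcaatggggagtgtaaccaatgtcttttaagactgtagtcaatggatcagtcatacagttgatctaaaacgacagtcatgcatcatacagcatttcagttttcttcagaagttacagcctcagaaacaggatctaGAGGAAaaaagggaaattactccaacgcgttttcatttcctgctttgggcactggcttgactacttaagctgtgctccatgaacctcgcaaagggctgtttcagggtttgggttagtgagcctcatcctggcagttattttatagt
Clec12a: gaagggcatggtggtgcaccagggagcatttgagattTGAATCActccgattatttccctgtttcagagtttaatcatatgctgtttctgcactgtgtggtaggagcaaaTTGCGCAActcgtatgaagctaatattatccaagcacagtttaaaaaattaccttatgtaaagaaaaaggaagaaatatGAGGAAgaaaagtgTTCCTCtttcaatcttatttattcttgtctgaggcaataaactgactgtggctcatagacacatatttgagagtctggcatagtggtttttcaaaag

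GAGGAA or its reverse complement was found in the promoters of 5 of the 6 genes, all but Clec4a2, and in 28.3% of 32851 mouse promoters of the same length. The Clec4e, Clec4d and Clec12a promoters held it on both strands. The Clec4e match to TTGCNNAA started 66 bases before the transcript start. That motif was also in the Clec12a promoter and in 10.8% of all promoters. TGANTCA was in the promoters of Clec12a and Clec4a2 and in 7.81% of all. The STAT letters TTCNNNGAA were in that of Clec4a2 alone among the 6 and in 8.3% of all. The Clec12a match to TTGCNNAA reads the same on both strands and was found on each at the same place. Matches to different motifs did not overlap, and none was tested for binding.

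Depth in M reads per tumour ranged from 7.13 to 8.74 in the beta-glucan group, 6.33 to 21.2 in the anti-CD40 group, 12.2 to 18.8 in the combination group and 7.38 to 9.34 in the untreated group. The summed level of 10 markers of tumour epithelium was 11374 to 29116 normalized counts with beta-glucan, 4663 to 24981 with anti-CD40, 4082 to 9784 with the combination and 35347 to 46951 untreated. The 20 acinar markers, genes of the normal pancreas, took 0.501 to 15.4% of reads with beta-glucan, 0.556 to 58.8% with anti-CD40, 0.532 to 31.7% with the combination and 0.0168 to 15.4% untreated. Over 30% of reads were acinar in 3 tumours, anti-CD40 tumour 6 (58.8%) and combination tumours 4 (31.7%) and 5 (31.5%). The summed level of 10 macrophage markers was 25952 to 38651 normalized counts with beta-glucan, 32575 to 86605 with anti-CD40, 45227 to 103853 with the combination and 11852 to 70969 untreated. Beta-glucan raised 3 of these 10 markers, anti-CD40 8 and the combination 9. The summed level of 10 neutrophil markers was 4439.9 to 13493 with beta-glucan, 854 to 22988 with anti-CD40, 23233 to 29405 with the combination and 1028 to 2179.5 untreated, where Ly6g had no read. Of the neutrophil markers 5 rose with beta-glucan and 9 under the combination, and under anti-CD40 4 rose and Cxcr2 fell. All 7 general leukocyte markers rose under each treatment, with median log2 changes of 1.40 (beta-glucan), 1.81 (anti-CD40) and 2.63 (combination). B cell markers rose for 1 of 4 under beta-glucan and for 4 of 4 under either treatment with anti-CD40. The part of these cell types in the lectin changes below was not tested beyond the fits relative to macrophage and leukocyte markers. In bulk tissue, fewer cells of a type and less RNA per cell cannot be told apart.

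All 8 lectin genes were higher in treated than in untreated tumours under each of the 3 treatments (limma on log2(value + 1), Benjamini-Hochberg adjusted p under 0.05). With beta-glucan 5.09% of the 14278 genes tested were higher, with anti-CD40 11.0% and with the combination 18.2%. The median log2 fold change of the 8 genes was 2.29 with beta-glucan, 2.004 with anti-CD40 and 2.66 with the combination. The median over all genes tested was 0.02, 0.00 and -0.01 in the same 3 comparisons. The treated and the untreated tumours did not overlap for 7 of the 8 genes with beta-glucan, where 3.98% of all genes lay wholly above. With anti-CD40 this held for 5 of 8 (5.03% of all genes) and with the combination for 8 of 8 (11.7%). The 3 comparisons share the untreated tumours. When all tumours were scaled to equal totals, 4 of the 8 genes did not pass with anti-CD40. These were Clec7a (log2 0.89, limma adjusted p = 0.187), Clec4n (1.24, 0.0682), Clec5a (0.70, 0.381) and Clec4a2 (0.93, 0.0809).

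**Figure D1:**
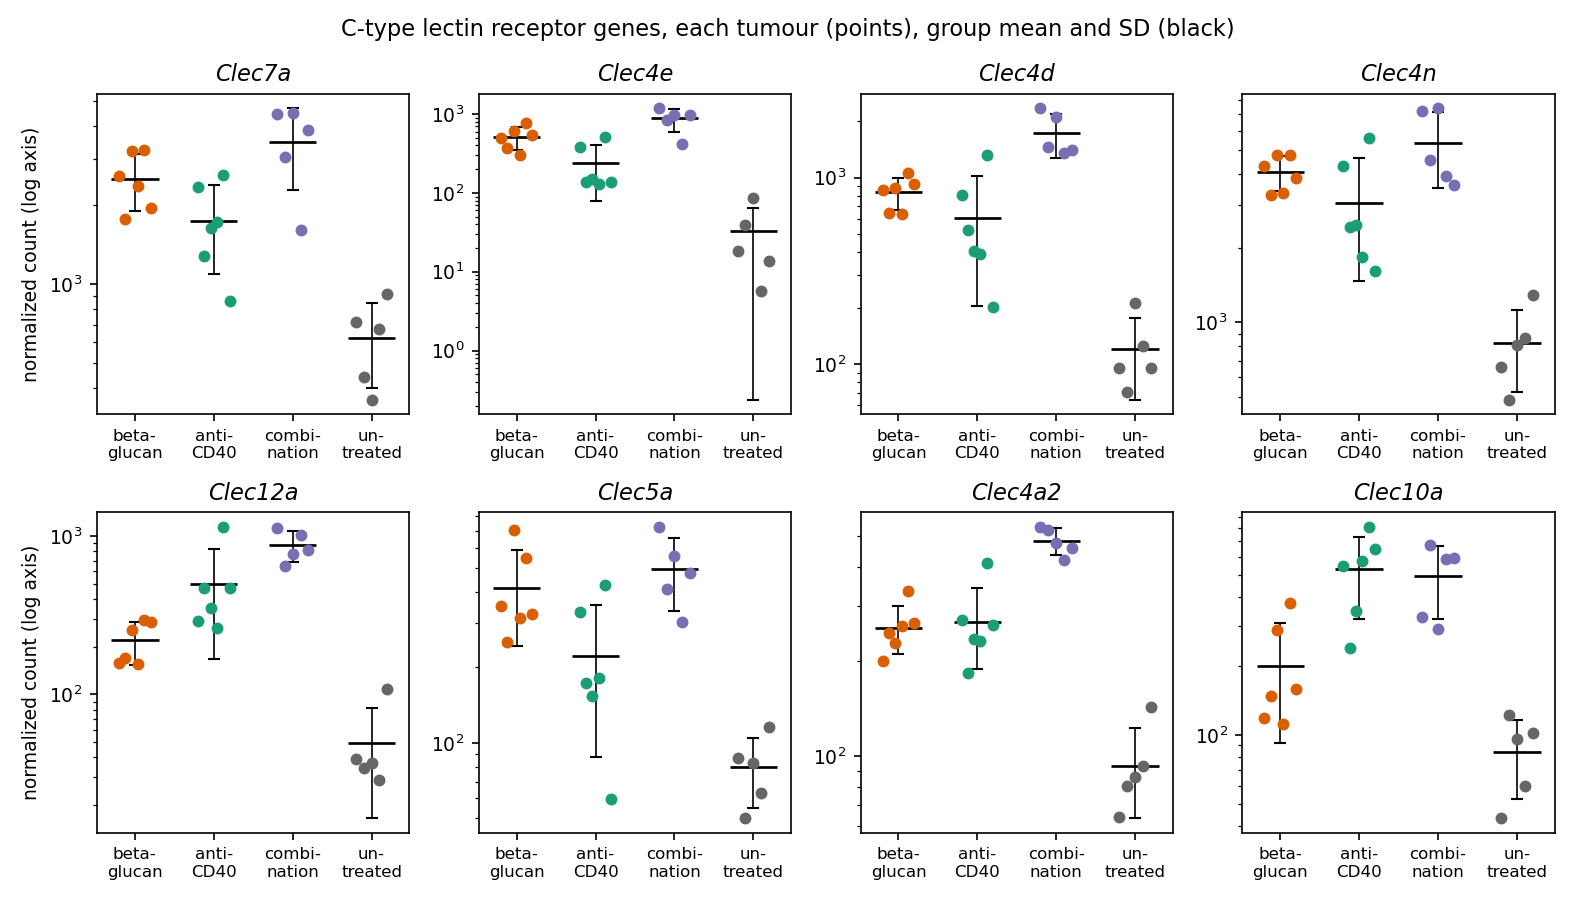
Normalized count of each of the 8 genes (log axis) in every tumour, by group; points are tumours, black bars the group mean and SD. Untreated tumours lie below the combination tumours for all 8 genes, and anti-CD40 tumour 6 reaches down among them for Clec7a (861), Clec4d (201) and Clec5a (59.8).

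Mincle and its partner had the largest log2 changes of the 8 genes with beta-glucan. Clec4e encodes Mincle, a receptor for mycobacterial cord factor and for a protein released by dying cells. Its normalized count had a lowest, median and highest value of 305, 521 and 774 with beta-glucan, and of 129, 145 and 507 with anti-CD40. It was 1191, 833, 979.6, 416 and 983 in the combination tumours, against 18.3, 38.8, 86.0, 5.73 and 13.8 in the untreated ones, where the gene had 5 to 98 reads. Every treated tumour lay above every untreated one. Clec4e was 21.4-fold higher with beta-glucan (log2 4.42 ± 0.49, limma adjusted p = 1.08e-05), the largest rise of all 14278 genes in that comparison. It was 8.89-fold higher with anti-CD40 (log2 3.15 ± 0.49, limma adjusted p = 9.28e-05). With the combination it was 36.0-fold higher (log2 5.17 ± 0.52, limma adjusted p = 1.45e-07).

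The low untreated level makes the Clec4e fold depend on few reads. Leaving out 1 tumour at a time moved its log2 change between 3.97 and 4.89 with beta-glucan, between 2.71 and 3.63 with anti-CD40 and between 4.72 and 5.65 with the combination. The highest of each came without untreated tumour 3, the untreated tumour with the most Clec4e.

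Clec4d encodes MCL, which pairs with Mincle. It had a lowest, median and highest normalized count of 641, 869 and 1059 with beta-glucan, and of 201, 464 and 1328 with anti-CD40. It was 2359.6, 1465, 2103, 1352 and 1406 with the combination, against 95.7, 70.8, 213, 125 and 95.2 untreated. The combination tumours lay above all other tumours, the nearest being anti-CD40 tumour 5 at 1328. Anti-CD40 tumour 6, at 201, was within the untreated range. Clec4d was higher by log2 2.87 ± 0.34 with beta-glucan, 2.19 ± 0.34 with anti-CD40 and 3.91 ± 0.35 with the combination (limma adjusted p = 1.64e-05, 7.3e-05 and 3.79e-08).

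Dectin-1 and Dectin-2, the receptors for beta-glucan and for fungal mannan, also rose under each treatment. Clec7a, for Dectin-1, had a lowest, median and highest normalized count of 1776, 2479 and 3239 with beta-glucan, and of 861, 1684 and 2605 with anti-CD40. It was 4456, 3047, 4490.4, 1613 and 3871 with the combination, against 716, 442, 361, 674 and 915 untreated. Combination tumour 4 was the lowest of its group and below every beta-glucan tumour, and anti-CD40 tumour 6 was within the untreated range. GENCODE M21 lists Clec7a as a polymorphic pseudogene. The log2 change was 2.06 ± 0.30 with beta-glucan (limma adjusted p = 9.71e-05), 1.47 ± 0.30 with anti-CD40 (0.00105) and 2.48 ± 0.31 with the combination (1.89e-06).

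Clec4n, for Dectin-2, had a lowest, median and highest normalized count of 3300.3, 4095 and 4797 with beta-glucan, and of 1614, 2464 and 5624 with anti-CD40. It was 7199, 4558, 7415, 3936 and 3598 with the combination, against 661, 486, 807, 863 and 1292 untreated. No treated tumour reached down to the untreated range. The log2 change was 2.37 ± 0.29 with beta-glucan, 1.82 ± 0.29 with anti-CD40 and 2.71 ± 0.30 with the combination (limma adjusted p = 1.92e-05, 8.93e-05 and 4.28e-07).

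Clec5a encodes MDL-1, which signals through Tyrobp and is known from monocytes, macrophages and neutrophils. Its normalized count had a lowest, median and highest value of 252, 339 and 703 with beta-glucan, and of 59.8, 177 and 427 with anti-CD40. It was 729, 411, 554, 303 and 477 with the combination, against 87.4, 50.1, 83.4, 63.0 and 115 untreated. Beta-glucan and combination tumours all lay above the untreated ones, while anti-CD40 tumour 6 lay among them. The log2 change was 2.33 ± 0.37 with beta-glucan (limma adjusted p = 0.000335), 1.27 ± 0.37 with anti-CD40 (0.019) and 2.61 ± 0.39 with the combination (1.68e-05). The anti-CD40 call of Clec5a was lost without anti-CD40 tumour 5 or without untreated tumour 2 (highest adjusted p = 0.0585), and the log2 change was 1.59 without anti-CD40 tumour 6.

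The receptors with inhibitory motifs also rose under each treatment. Clec12a, a receptor for uric acid crystals that restrains myeloid cells, had a lowest, median and highest normalized count of 155, 212 and 297 with beta-glucan, and of 263, 409 and 1149 with anti-CD40. It was 1125, 644, 769, 1021 and 822 with the combination, against 39.1, 34.5, 36.9, 28.6 and 108 untreated. Each combination tumour lay above every beta-glucan tumour, and untreated tumour 6 stood above the other untreated ones. The log2 change was 2.26 ± 0.34 with beta-glucan, 3.29 ± 0.34 with anti-CD40 and 4.27 ± 0.35 with the combination (limma adjusted p = 0.000158, 4.8e-07 and 1.47e-08).

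Clec4a2, for DCIR, had a lowest, median and highest normalized count of 201, 253 and 334 with beta-glucan, and of 184, 249 and 411 with anti-CD40. It was 536, 523, 475, 421 and 458 with the combination, against 64.1, 80.3, 86.0, 92.8 and 143 untreated. The combination tumours lay above all others, and the ranges of the single treatments overlapped. The log2 change was 1.48 ± 0.21 with beta-glucan, 1.51 ± 0.21 with anti-CD40 and 2.41 ± 0.22 with the combination (limma adjusted p = 8.13e-05, 2.1e-05 and 3.78e-08). Clec4a2 contains the pseudogene Gm44132 on the same strand and has close relatives in its cluster, so some reads could belong to these.

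Clec10a encodes MGL1, a receptor for galactose-type sugars found on macrophages and dendritic cells. Its normalized count had a lowest, median and highest value of 111, 153 and 376 with beta-glucan, and of 241, 561 and 813 with anti-CD40. It was 329, 674, 289, 586 and 595 with the combination, against 43.3, 122, 95.6, 59.6 and 101 untreated. Beta-glucan tumours overlapped the untreated ones, and anti-CD40 and combination tumours did not. The log2 change was 1.18 ± 0.36 with beta-glucan (limma adjusted p = 0.0482), 2.62 ± 0.36 with anti-CD40 (1.62e-05) and 2.55 ± 0.37 with the combination (1.29e-05). The beta-glucan call was just inside the threshold. It was lost when any of 13 single tumours was left out, with adjusted p up to 0.162 and log2 changes between 0.96 and 1.33 over all tumours left out in turn. Of these 13, 7 were in the groups compared (beta-glucan tumours 2, 3, 5 and 6 and untreated tumours 1, 3 and 5). Without the 3 tumours over 30% acinar, none of which is in this comparison, the log2 change stayed at 1.18 and the call was lost, which left 7 of 8 genes called with beta-glucan. Clec10a has a close paralog, Mgl2, and reads could be shared between them.

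Adding anti-CD40 to beta-glucan raised 4 of the 8 genes, where 6.49% of all genes tested were higher. These were Clec12a (combination minus beta-glucan, log2 2.01 ± 0.34, limma adjusted p = 0.000658), Clec10a (1.38 ± 0.36, 0.0117), Clec4d (1.04 ± 0.34, 0.0409) and Clec4a2 (0.93 ± 0.21, 0.00492). For Clec12a, Clec4d and Clec4a2 every combination tumour lay above every beta-glucan tumour, as did 5.68% of all genes. Clec4e, Clec7a, Clec4n and Clec5a did not pass, at log2 0.75, 0.42, 0.34 and 0.28, and with equal totals Clec7a, Clec4n and Clec5a were on the other side of 0 at -0.09, -0.16 and -0.22. Their 95% intervals were -0.27 to 1.77 for Clec4e, -0.20 to 1.03 for Clec7a, -0.25 to 0.94 for Clec4n and -0.49 to 1.06 for Clec5a. The Clec4d call was lost when any 1 of 10 tumours was left out, every tumour of the 2 groups but beta-glucan tumour 5 (adjusted p up to 0.099), and the Clec10a call without the tumours over 30% acinar. When all tumours were scaled to equal totals, Clec12a alone remained called (log2 1.51).

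Adding beta-glucan to anti-CD40 raised 3 of the 8 genes, where 0.658% of all genes tested were higher. Clec4e was higher by log2 2.02 ± 0.49 (combination minus anti-CD40, limma adjusted p = 0.0413), Clec4d by 1.72 ± 0.34 (0.0161) and Clec4a2 by 0.90 ± 0.21 (0.0343). For Clec4d and Clec4a2 every combination tumour lay above every anti-CD40 tumour, as did 0.777% of all genes. Clec5a, Clec7a, Clec12a and Clec4n did not pass, at log2 1.35, 1.01, 0.98 and 0.89 (limma adjusted p = 0.0674, 0.0825, 0.14 and 0.116). Clec10a was at -0.07 ± 0.36, with a 95% interval of -0.80 to 0.67. The count of called genes rested on single tumours. It was 0 without anti-CD40 tumour 3 or combination tumour 1, 1 without anti-CD40 tumour 2 or 4 or combination tumour 2 or 5, and 7 without anti-CD40 tumour 5. The Clec4e call was lost when any of 13 single tumours was left out, the Clec4a2 call with any of 8 and the Clec4d call without anti-CD40 tumour 3 or combination tumour 1. It was also 0 without the 3 tumours over 30% acinar.

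Between the single agents 1 of the 8 genes passed. Clec10a was lower with beta-glucan than with anti-CD40 (log2 -1.44 ± 0.34, limma adjusted p = 0.0237), where 1.61% of all genes tested were lower. Of the 6 beta-glucan tumours, 4 lay below every anti-CD40 tumour for Clec10a, and the same count held for Clec12a (log2 -1.03 ± 0.32, limma adjusted p = 0.107). Clec4e (1.26 ± 0.47), Clec5a (1.06 ± 0.36), Clec4d (0.68 ± 0.32), Clec7a (0.59 ± 0.28) and Clec4n (0.54 ± 0.28) were on the other side of 0 and did not pass (0.490% of all genes were higher), with limma adjusted p between 0.139 and 0.369. Clec4a2 was at -0.03, with a 95% interval of -0.44 to 0.38. For none of the 8 genes did the groups separate fully, while 0.686% of all genes lay wholly above and 1.44% wholly below. The Clec10a call was lost without beta-glucan tumour 1, 2, 4 or 6 or anti-CD40 tumour 4, 5 or 6, and without the tumours over 30% acinar. Without untreated tumour 6, 2 genes were called.

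In the order of mean log2 levels, the combination was highest for 7 genes, and anti-CD40 for Clec10a. Untreated tumours were lowest for all 8. Beta-glucan came before anti-CD40 for Clec7a, Clec4e, Clec4d, Clec4n and Clec5a, and anti-CD40 before beta-glucan for Clec12a, Clec4a2 and Clec10a. Among neighbours in that order, the lowest step, to untreated, passed for all 8 genes. Of the higher steps, combination over beta-glucan passed for Clec4d and Clec10a, and combination over anti-CD40 for Clec4a2. The step from the combination to anti-CD40 for Clec10a (log2 0.07) and that between the single agents for Clec4a2 (0.03) did not pass (limma adjusted p = 0.961 and 0.967), and both turned round with equal totals. With that scaling the combination was also below beta-glucan for Clec7a (log2 -0.09), Clec4n (-0.16) and Clec5a (-0.22), without passing.

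On the log2 scale the estimated change with both agents was below the sum of the single changes for all 8 genes, and no gene passed. The interaction is the change with both agents less the sum of the changes with each alone. It was between -0.58 (Clec4a2) and -2.40 ± 0.70 (Clec4e) on the log2 scale. The median was -1.19 for the 8 genes, -0.06 over all genes tested and -0.84 for the 7 general leukocyte markers. The share of all genes below 0 was not counted. With the mean leukocyte marker level of each tumour subtracted, the interaction was between -1.57 (Clec4e) and 0.25 (Clec4a2), and no lectin gene passed. The interaction and the comparisons of the combination with each agent alone take the doses as equal, which is not stated. For Clec4n (log2 -1.48 ± 0.41) the limma p was 0.00136 unadjusted and 0.222 adjusted, and for Clec4e 0.00225 and 0.251. With limma 0 of 8 were called, where 0.0210% of all genes tested were called, and 6 of 8 had an unadjusted p under 0.05. With edgeR and DESeq2 on the recovered reads 0 of 8 were called by either, where 2 and 98 of all genes were called. By both, 8 of 8 had an unadjusted p under 0.05. The share of all genes with an unadjusted p under 0.05 was not counted for any of the tools. The counts at unadjusted p therefore cannot be set against all genes. The 8 estimates share the same tumours, so they are not 8 independent values.

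**Figure D2:**
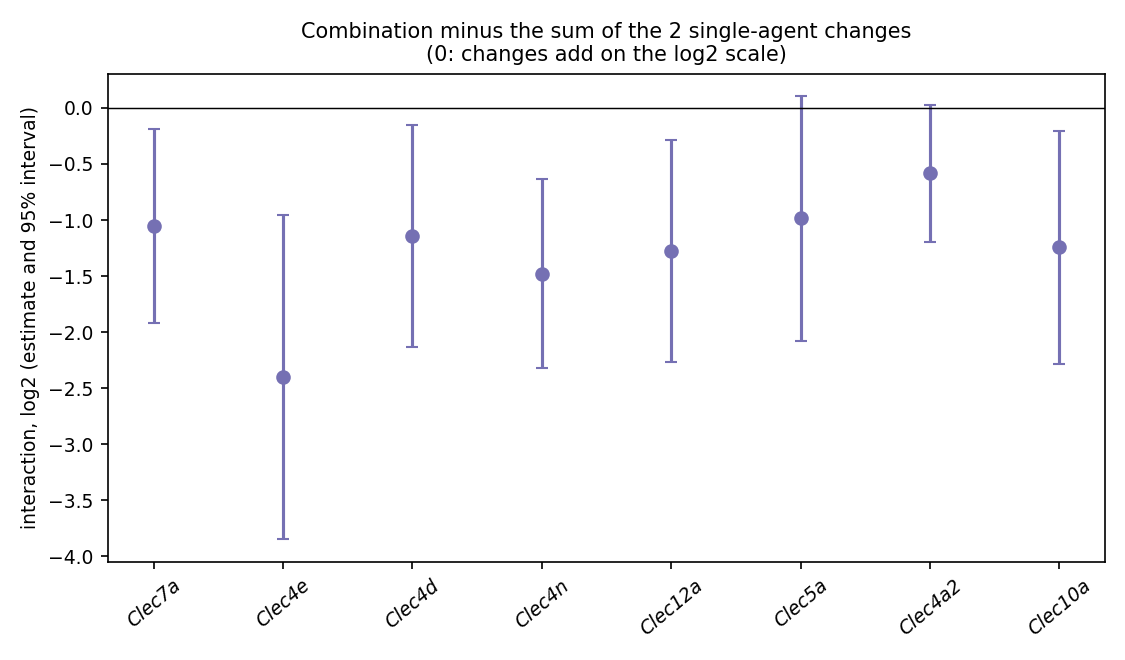
Interaction on the log2 scale for each of the 8 genes; points are estimates and bars 95% intervals from limma over 22 tumours, and the line at 0 marks changes that add. All 8 points lie below 0, Clec4e lowest at -2.40, and the intervals of Clec5a (-2.07 to 0.11) and Clec4a2 (-1.20 to 0.03) reach past 0.

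To set the lectin genes against the macrophage content of each tumour, the mean log2 level of the 10 macrophage markers of the same tumour was subtracted before the fit. The subtraction lowers all genes of a tumour by the same amount and leaves their ranks by log2 change as they were. The macrophage level was higher in each treated group, so this shift itself reduces the share of genes higher than in untreated tumours. The shares of all genes and the adjusted p-values below depend on it. With beta-glucan 6 of the 8 genes were still higher than in untreated tumours, where 1.26% of all genes were. Clec4e was highest (log2 3.53 ± 0.54, limma adjusted p = 0.00094), followed by Clec4d (1.98 ± 0.38), Clec4n (1.47 ± 0.30), Clec5a (1.44 ± 0.39), Clec12a (1.37 ± 0.29) and Clec7a (1.17 ± 0.33). Clec4a2 was at 0.59 ± 0.26 (limma adjusted p = 0.0724) and Clec10a at 0.28 ± 0.37 (0.555). Against all leukocyte markers in place of macrophage markers, Clec7a was at 0.53 and no longer passed (limma adjusted p = 0.0803).

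With anti-CD40 4 of the 8 genes exceeded the macrophage markers, where 2.35% of all genes did. Clec12a rose by 1.99 ± 0.29 (limma adjusted p = 2.78e-05), Clec4e by 1.85 ± 0.54 (0.00519), Clec10a by 1.31 ± 0.37 (0.00407) and Clec4d by 0.88 ± 0.38 (0.0467) relative to them. On this shifted scale an unadjusted limma p of 0.0293 was enough for the Clec4d call. Clec7a stood at 0.16 ± 0.33 and Clec5a at -0.04 ± 0.39. Against leukocyte markers the Clec4d change was 0.33 and did not pass (limma adjusted p = 0.315). The Clec4d call was lost without any one of 16 tumours, and its value was 0.53 without untreated tumour 6, which had the most macrophage transcripts of its group (70969 normalized counts). With the combination 4 of the 8 exceeded them, where 1.95% of all genes did: Clec4e (3.15 ± 0.56), Clec12a (2.26 ± 0.31), Clec4d (1.90 ± 0.40) and Clec4n (0.69 ± 0.31, limma adjusted p = 0.0465). For Clec4n the unadjusted limma p was 0.0352. The Clec4n call was lost without any one of 11 tumours, with adjusted p up to 0.15, and against leukocyte markers, where the change was 0.14 (limma adjusted p = 0.613).

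On the same scale 2 genes passed between the combination and beta-glucan and 1 between the single agents. Relative to macrophage markers, Clec12a was higher with the combination than with beta-glucan (log2 0.89 ± 0.29, limma adjusted p = 0.0139), where 0.847% of all genes were higher. Clec4n was lower (-0.78 ± 0.30, limma adjusted p = 0.0306), where 52.8% of all genes were lower. Clec5a was higher with beta-glucan than with anti-CD40 (1.48 ± 0.37, limma adjusted p = 0.0438), where 0.714% of all genes were higher. Without the tumours over 30% acinar none of the 3 passed, at log2 0.88 for Clec12a (limma adjusted p = 0.0651), -0.44 for Clec4n (0.292) and 1.16 for Clec5a (0.122). The Clec4n call was also lost without beta-glucan tumour 1 or 3 or combination tumour 4 or 5. The Clec5a call was lost when any of 15 tumours was left out (highest adjusted p = 0.141), each beta-glucan tumour, anti-CD40 tumours 3 to 6, combination tumours 1, 2, 3 and 5 and untreated tumour 5. The count between the single agents was 2 without anti-CD40 tumour 1 or 2 and 3 without untreated tumour 6. Between the combination and anti-CD40, 0 of 8 passed with limma, where 0.105% of all genes were higher and 6.30% lower by adjusted p. That count was 1 without anti-CD40 tumour 5 and 2 without untreated tumour 6. An unadjusted limma p under 0.05 was reached by 3 of 8, Clec4e (1.31) and Clec4d (1.02) higher and Clec10a (-0.77) lower. The share of all genes at that looser threshold was not counted. Macrophage markers are themselves changed by the treatments, and whether neutrophils or other cells hold part of the lectin transcripts was not tested.

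**Figure D3:**
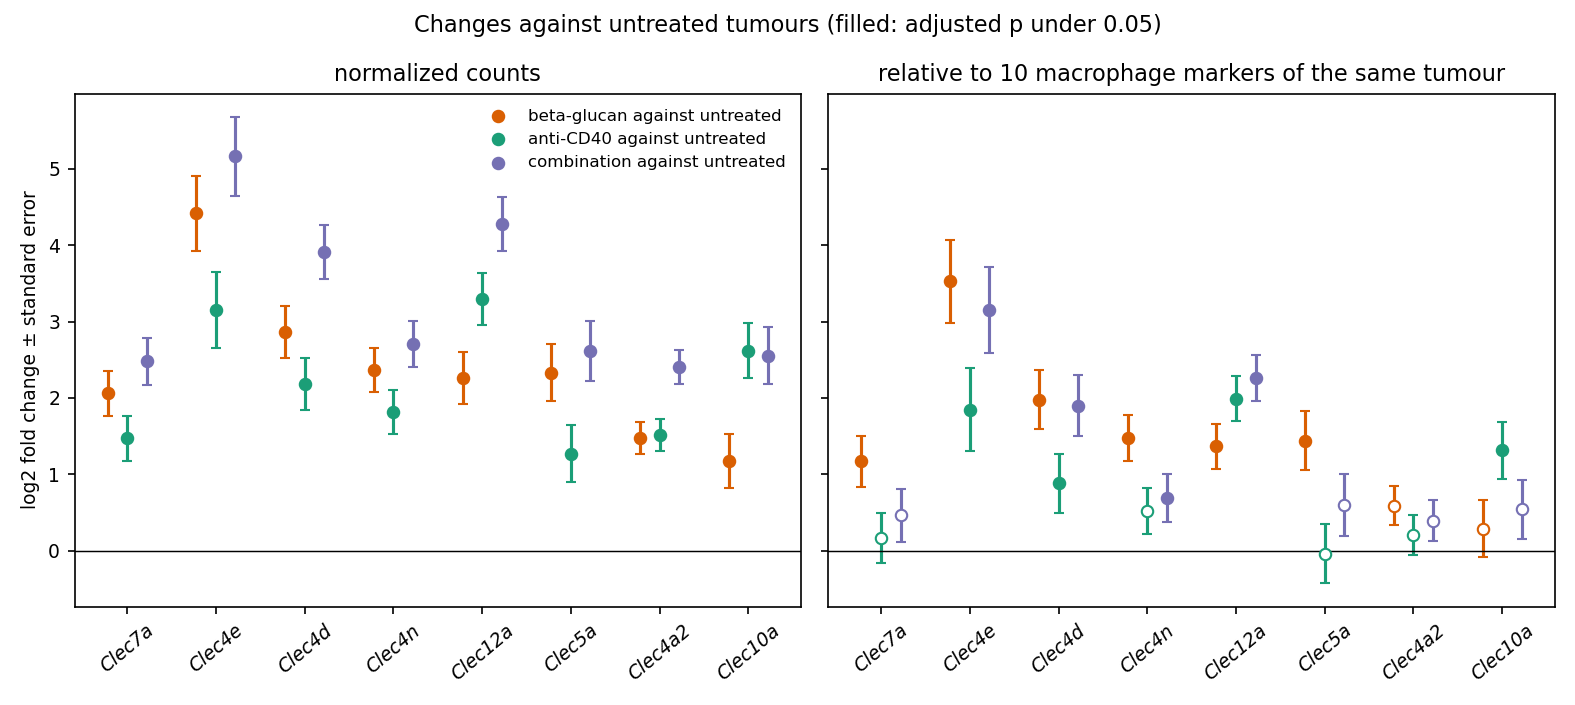
Log2 fold change (point) and standard error (bar) of the 8 genes in each treatment against untreated tumours, from normalized counts on the left and relative to 10 macrophage markers of the same tumour on the right; filled points passed (limma adjusted p under 0.05). All points on the left are filled, and on the right Clec4e, Clec4d and Clec12a are filled under every treatment.

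Of 9 tested genes of the 2 clusters and their neighbours outside the 8, 6 rose with beta-glucan (5.09% of all genes), 4 under anti-CD40 (11.0%) and 8 under the combination (18.2%). Of 7 measured genes of the Dectin-2 cluster, the 4 members included, beta-glucan and anti-CD40 each raised 6 and the combination raised all 7. The cluster's genes outside the 8 were Clec4a1, Clec4a3 and Clec4b1, which are close relatives of Clec4a2. Clec4b2, also of this cluster, was not found by name in the deposited table. Clec4a1 was at log2 1.64 ± 0.50 with beta-glucan (limma adjusted p = 0.04996), 2.82 ± 0.50 with anti-CD40 and 3.68 ± 0.52 with the combination. Clec4a3 was at 1.51 ± 0.33, 2.33 ± 0.33 and 2.88 ± 0.35 in the same order, and both passed under each treatment. Clec4b1, a low-count gene, averaged 34.5 normalized counts with the combination and 4.23 untreated and passed in that comparison alone (2.87 ± 0.96, limma adjusted p = 0.0227). The cluster's median log2 fold change was 1.64 (beta-glucan), 2.19 (anti-CD40) and 2.88 (combination).

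The Dectin-1 cluster and its neighbours Cd69 and Clec2d had 8 tested genes, with Clec7a and Clec12a among them. Beta-glucan raised 6 of these (5.09% of all genes were higher), anti-CD40 raised 4 (11.0%) and the combination raised 7 (18.2%). Clec7a and Clec12a, called under each treatment, are part of each count. Cd69, an early activation marker of lymphocytes, rose by log2 1.98, 2.60 and 3.30 with beta-glucan, anti-CD40 and the combination. Clec1a rose by 1.85, 1.99 and 2.55. Olr1 encodes LOX-1, a receptor for oxidized lipoproteins, and was higher with beta-glucan (1.34 ± 0.35, limma adjusted p = 0.0211) and with the combination (1.05 ± 0.37, 0.0281), while with anti-CD40 it was at -0.13 ± 0.35. The difference of Olr1 between beta-glucan and anti-CD40 itself passed (1.47 ± 0.33, limma adjusted p = 0.0186). Clec2d did not pass under any treatment.

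**Figure D4:**
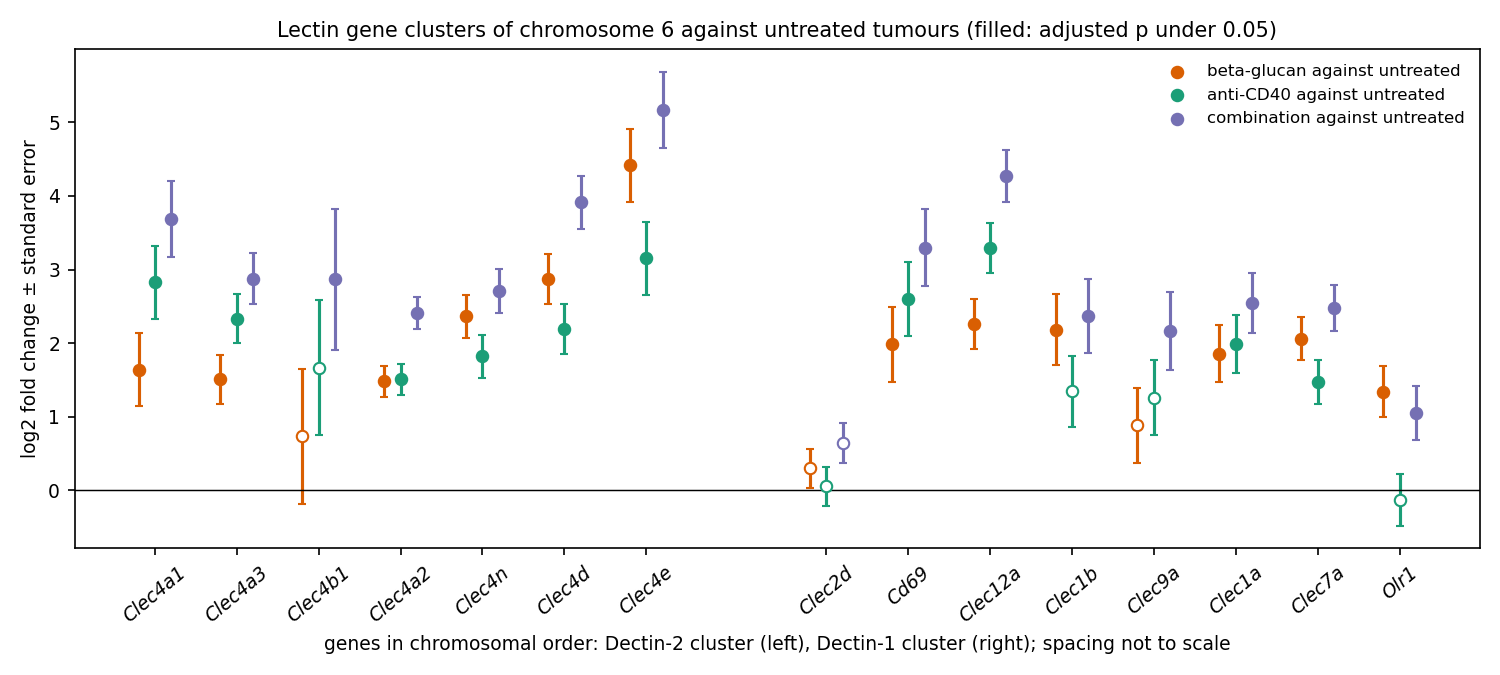
Log2 fold change (point) and standard error (bar) against untreated tumours for genes of the Dectin-2 cluster (left) and the Dectin-1 cluster with its neighbours (right), in chromosomal order; filled points passed (limma adjusted p under 0.05). Clec4e and Clec4d are the highest of the left group under beta-glucan, and Olr1 is at -0.13 with anti-CD40 but at 1.34 with beta-glucan.

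A further list of C-type lectin genes of leukocytes left out the 8 and, but for Clec9a, the cluster genes and neighbours above. Of its 14 tested genes, beta-glucan raised 1 (5.09% of all genes were higher), anti-CD40 raised 4 (11.0%) and the combination raised 9 (18.2%). Median log2 changes were 0.61 (beta-glucan), 0.78 (anti-CD40) and 1.37 (combination). The gene called with beta-glucan was Klrg1, a receptor of natural killer and T cells (2.79 ± 0.54). Those called with anti-CD40 were Klrg1, Klrb1b, Klrk1 and Klrd1, all receptors of natural killer and T cells, and 5 of 6 T cell markers also rose with anti-CD40. The part of T and natural killer cells in these changes was not tested. Mrc1, the mannose receptor, passed with the combination (0.96 ± 0.29, limma adjusted p = 0.0128). Mgl2, the paralog of Clec10a, was lower with beta-glucan than with anti-CD40 (-1.48 ± 0.34, limma adjusted p = 0.0223) and lower with the combination than with anti-CD40 (-1.58 ± 0.36, 0.0321). Mgl2 averaged 289 normalized counts with beta-glucan, 797 with anti-CD40, 275 with the combination and 567.6 untreated. Clec10a, in contrast, averaged 495 with the combination against 528 with anti-CD40.

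Of 14 adaptors and kinases, beta-glucan raised 9 (5.09% of all genes were higher), anti-CD40 raised 10 (11.0%) and the combination raised 11 (18.2%). Their median log2 changes were 1.26, 1.35 and 2.32 in the same order. Fcer1g, the adaptor of Mincle, MCL and Dectin-2, rose by 1.54 ± 0.23, 1.57 ± 0.23 and 2.40 ± 0.24. Tyrobp, the adaptor of MDL-1, rose by 1.69 ± 0.22, 1.90 ± 0.22 and 2.76 ± 0.23. Syk, the kinase downstream of these activating receptors, rose by 1.68 ± 0.32, 2.05 ± 0.32 and 2.90 ± 0.33. Card9 and Bcl10, which carry the signal on to NF-kB, and the kinase Src did not pass under any treatment, and Card9 averaged 7.28 to 21.4 normalized counts per group. Of the 3 phosphatases that bind inhibitory motifs, Ptpn6 and Inpp5d rose under every treatment and Ptpn11 did not pass under any.

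Of 13 tested genes known to be induced by Dectin-1 in cultured myeloid cells, 2 rose with beta-glucan (5.09% of all genes were higher). With anti-CD40 1 rose (11.0%) and 1 fell. With the combination 6 rose (18.2%) and 1 fell. Il1b, for interleukin-1 beta, averaged 2392 normalized counts with beta-glucan, 667 with anti-CD40, 2317 with the combination and 308 untreated. It was higher with beta-glucan than with anti-CD40 (log2 2.12 ± 0.37, limma adjusted p = 0.00235). Tnf rose with beta-glucan by 1.62 ± 0.43 and with the combination by 2.37 ± 0.45. Il12b, a subunit of interleukin-12, rose with anti-CD40 (3.18 ± 0.82) and the combination (3.49 ± 0.85) and was at 0.13 ± 0.82 with beta-glucan. Cxcl2, a chemokine for neutrophils, fell with anti-CD40 (-1.87 ± 0.57, limma adjusted p = 0.0238) and was higher with beta-glucan than with anti-CD40 (3.42 ± 0.55). Il23a fell with the combination, where it averaged 1.16 normalized counts against 13.8 untreated. Without the tumours over 30% acinar the counts of higher genes were 7 for beta-glucan, 2 for anti-CD40 and 8 for the combination. None of those tumours is in the beta-glucan comparison. Its median log2 change stayed at 1.29, so that count moved through the p-values alone.

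Of 9 other tested receptors of beta-glucan or microbial patterns, 4 rose with beta-glucan (5.09% of all genes were higher) and 4 with anti-CD40 (11.0%). With the combination 7 rose (18.2%) and Epha2 fell. Itgam and Itgb2, the chains of complement receptor 3, another beta-glucan receptor, rose by log2 2.17 ± 0.36 and 2.69 ± 0.40 with beta-glucan and by 2.55 ± 0.37 and 3.51 ± 0.42 with the combination. With anti-CD40 Itgb2 rose (2.42 ± 0.40) and Itgam did not pass (0.92 ± 0.36, limma adjusted p = 0.0740). Tlr2, a receptor for microbial lipoproteins that works with Dectin-1, rose by 2.45, 2.58 and 3.56 with beta-glucan, anti-CD40 and the combination.

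After group means were removed, the Pearson correlation over 22 tumours was 0.83 between Clec4n and Clec5a, 0.82 between Clec7a and Clec5a and 0.80 between Clec4d and Clec4n. It was 0.18 between Clec7a and Clec4e and 0.01 between Clec7a and Clec10a, and 0.61 between the neighbours Clec4e and Clec4d. Correlations with marker levels are given for some pairs of gene and marker list alone. With the mean macrophage marker level the correlation was 0.87 for Clec4a2, 0.77 for Clec12a and 0.03 for Clec4e. For Clec10a it was 0.85 with fibroblast, 0.72 with monocyte and 0.69 with conventional dendritic cell markers. For Clec4e it was 0.59 with fibroblast and 0.54 with monocyte markers. These are descriptions over tumours that share libraries and scaling, with no test.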

How the data were processed

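RNA from 5 µm sections of formalin-fixed tumours was made into 3' mRNA libraries from 100 ng of RNA, per the labels' protocols, so values read transcript ends. STAR, mm10 and DESeq2 are named, without versions, per the submitters' processing notes; the sources used here name no counting program, annotation or strand setting. The deposited values are normalized counts, a signal: each tumour's reads over a size factor that the authors had set. Whole reads were recovered from the steps of each column (100% of 395252 values within 0.001 reads). No column lacked a sample. Replicates all differed by more than sampling noise (lowest chi-square per degree of freedom 13.4 over 50 pairs).

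Groups came from the labels. A gene needed a value of 10 or more in 5 or more tumours (14278 of 17966 passed). The main test was limma 3.58.1 (R 4.3.3) on log2(value + 1), with 4 group means and trended, robust variances, two-sided, with Benjamini-Hochberg adjustment within each contrast at 0.05. Errors of log2 changes are standard errors, those of levels SDs, and folds are on the log2(value + 1) scale, which understates changes of low genes. The relative fit subtracted the mean log2(value + 1) of the 10 macrophage markers. Alternatives included edgeR 4.0.16 and DESeq2 1.42.0 on recovered reads, other scalings, an acinar covariate, a replicate block and leaving out tumours; the relative fit without single tumours or without those over 30% acinar, the list counts without the latter and a block with another number for combination tumour 5 were added after seeing the data. The steps were tested on simulated data. The members and gene lists were chosen with earlier results of these data known. Named genes beyond the 8 are those called with the smallest p in each list, up to 4 per comparison; Card9, Bcl10, Src, Ptpn11, Olr1, Clec2d, Clec4b1, Mrc1, Mgl2, Il23a and Epha2 were added after their values were seen.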

Additional observations from a re-analysis of the deposited data

Results flagged for a closer look

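The Clec12a level of untreated tumour 6 stood out. It was 108 normalized counts, while the other 4 untreated tumours lay between 28.6 and 39.1, and its gap to the nearest of them exceeded the critical value of Dixon's test for 5 samples. Of 32 combinations of gene and group, 1 stood out in this way, and chance gives about 1 in 20. The same tumour had the highest summed macrophage marker level of its group (70969 normalized counts, against a group median of 14872) and 15.4% acinar reads, and the part of either in the Clec12a level was not tested. Without this tumour the log2 change of Clec12a was 2.58 with beta-glucan, 3.62 with anti-CD40 and 4.60 with the combination.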

How the results depend on the processing

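The counts against untreated tumours held their direction: no alternative reversed a call of any of the 8 genes, and with the combination 8 of 8 were called under every alternative. With beta-glucan 7 or 8 were called under every alternative. With anti-CD40 the count was 8 and fell to 4 with equal totals, where Clec7a, Clec4n, Clec5a and Clec4a2 were lost, and was 7 or 8 otherwise. With equal totals the median log2 change of all genes was -0.56 there (main 0.00), -0.45 for the combination (-0.01), -0.48 for the combination against beta-glucan (0.01), 0.13 for the combination against anti-CD40 (0.01) and 0.64 for beta-glucan against anti-CD40 (0.03). Relative to that median the anti-CD40 change of Clec7a was 1.45. For the combination against beta-glucan the count of 4 became 1 with equal totals and 2 with equal totals without acinar genes. For the combination against anti-CD40 the count of 3 became 0 with either equal-totals scaling, with only the groups compared and without the tumours over 30% acinar, 5 with DESeq2, and 0 to 7 when 1 tumour was left out. For beta-glucan against anti-CD40 the count of 1 became 0 with either equal-totals scaling, with the acinar covariate and without the tumours over 30% acinar, 2 with DESeq2, and 0 to 2 when 1 tumour was left out. Relative to macrophage markers, leaving out 1 tumour gave 1 to 3 for the combination against beta-glucan, 0 to 2 for the combination against anti-CD40 and 0 to 3 for beta-glucan against anti-CD40. Without the tumours over 30% acinar the first and the last of these became 0, and relative to leukocyte markers the combination against anti-CD40 had 1. Over all genes the counts called ranged over the alternatives from 258 to 1315 for beta-glucan (main 916), 1647 to 3125 for anti-CD40 (2650) and 3632 to 5232 for the combination (4849) against untreated, 938 to 2630 for the combination against beta-glucan (2013), 6 to 852 for the combination against anti-CD40 (212), 34 to 641 for beta-glucan against anti-CD40 (300) and 0 to 98 for the interaction (3). The causes were not tested beyond the fewer tumours and the scalings themselves.

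The share of higher calls among all genes moved with equal totals from 79.4% to 93.4% for beta-glucan, from 59.3% to 22.4% for anti-CD40 and from 53.6% to 33.2% for the combination against untreated, from 46.0% to 11.0% for the combination against beta-glucan, from 44.3% to 62.5% for the combination against anti-CD40 and from 23.3% to 55.9% for beta-glucan against anti-CD40. In these last comparisons equal totals left few calls, 5 higher and 3 lower genes in one and 19 higher and 15 lower in the other.

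The replicate numbers did not pair the tumours: of 30 same-numbered pairs 8 had a correlation of deviations over 0.1, and 5 of 22 tumours correlated best with their own number. With the replicate block the counts were 7 for beta-glucan, 8 for anti-CD40 and 8 for the combination against untreated, 4 for the combination against beta-glucan, 2 for the combination against anti-CD40, 1 for beta-glucan against anti-CD40 and 0 for the interaction. Combination tumour 5 is numbered by its title, and its column name ends in 6. With the number 6, an alternative chosen after seeing the data, 8 of 30 pairs were over 0.1, 4 tumours correlated best with their own number, and the replicate block gave 6 genes for the combination against anti-CD40 and the same counts as above elsewhere. Depth limits the untreated Clec4e level most, at 5 to 98 reads.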

Other observations

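Among 11306 tested genes with a mean of at least 30, and over the 22 tumours, the log2 levels closest to Clec4e were those of Fpr1, a formyl peptide receptor of phagocytes (Pearson r = 0.96), Stk10 (0.94), Csf2rb2 (0.94), Slc11a1, a metal transporter of phagosomes (0.94), and Gpr84 (0.93). Those closest to Clec7a were Pla2g7 (0.95), Plek (0.95), Acod1, the enzyme that makes itaconate (0.95), Csf2rb2 (0.95) and Emb (0.94). With group means removed, Fpr1 stayed first for Clec4e (0.92), followed by Cyp4v3 (0.86), Cd1d1 (0.86), Stk10 (0.84) and Igdcc4 (0.83). For Clec7a the list was then Atp6v1a, a subunit of the proton pump of lysosomes (0.86), Pla2g7 (0.84), Cd274, which encodes PD-L1 (0.84), Emb (0.84) and Gpr171 (0.83). These correlations have n = 22, share libraries and group differences, and have no test.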
